A study of Caenorhabditis elegans with 36 samples.

Results

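The genes described here are 10 genes of endoplasmic reticulum (ER) stress in Caenorhabditis elegans: the chaperones hsp-3, hsp-4, enpl-1 and crt-1, the disulfide enzymes dnj-27 and pdi-6, the stress sensors ire-1, pek-1 and atf-6, and the transcription factor gene xbp-1. They were picked by gene symbol, and all 10 were found among the 27782 gene identifiers of the count table. Whole worms were sequenced as bulk RNA in a study of mitochondrial stress responses centred on terbinafine and miglustat. Each of 9 groups had 4 biological replicates, which made 36 libraries. All worms were of the wild-type strain N2 and were treated from the L1 larva to the adult of day 1 on plates that held 10 µM 5-FU, a drug that blocks the production of offspring. Stocks were kept at 20 °C, each sample began with about 3000 larvae, and every treated and control group received the 5-FU as well as IPTG and carbenicillin. Of the 6 groups of batch 1, DMSO alone was the solvent control. The compounds of that batch were 31.5 µM Terbinafine, 250 µM Miglustat, 500 µM BAY2402234 and 500 µM Brequinar, and the remaining group had dhod-1 RNAi and DMSO. The 3 groups of batch 2 had DMSO alone, 50 µM Doxycycline or 250 µM Teriflunomide, and the labels do not say what a batch is. The dhod-1 RNAi worms ate HT115 bacteria that make dhod-1 double-stranded RNA, and all other groups ate HT115 bacteria with the empty vector. Terbinafine is an antifungal that inhibits squalene epoxidase, and miglustat is an iminosugar that inhibits glucosylceramide synthase. BAY2402234, brequinar and teriflunomide inhibit dihydroorotate dehydrogenase, the pyrimidine synthesis enzyme that dhod-1 encodes. The antibiotic doxycycline also blocks translation in mitochondria.

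Proteins that are secreted or inserted into membranes fold in the ER, where chaperones hold them and disulfide enzymes form or break their cysteine bonds. When unfolded proteins accumulate, the unfolded protein response is set off by the membrane sensors IRE-1, PEK-1 (the worm PERK) and ATF-6. IRE-1 splices the xbp-1 mRNA so that it encodes an active bZIP transcription factor, PEK-1 phosphorylates the translation factor eIF2alpha, and BiP, which the worm makes from hsp-3 and hsp-4, is a classic target of the response. In worms hsp-4 is widely used as a reporter of this response. The gene counts used here do not separate spliced from unspliced xbp-1 mRNA.

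Total counts were between 19253276 and 20455600 per library, and each of the 10 genes had between 215 and 50495 counts in every library. All 10 passed the low-count filter and were tested in every comparison. Levels are CPM, the counts divided by TMM-scaled library size, and differences between groups are on the log2 scale, each with its standard error (SE). A gene is said to have risen or fallen only where its Benjamini-Hochberg adjusted p, over all genes tested, fell under 0.05 in the quasi-likelihood test of edgeR. The knocked-down gene dhod-1 stood at 60.3, 83.1, 74.1 and 76.6 CPM after dhod-1 RNAi and at 84.3, 81.9, 92.9 and 83.9 CPM in the batch 1 DMSO libraries, a change of -0.28 (SE 0.08, adjusted p = 0.00482, edgeR) with overlapping groups. The 4 doxycycline libraries stood apart from the other 32 libraries on the first principal component. On the second, dhod-1 RNAi replicates 3 and 4 stood apart from replicates 1 and 2. Replicate 1 of the batch 2 DMSO group stood apart from the other 3 on both components, as did, less far, replicate 1 of BAY2402234. Whole worms mix tissues, and fewer cells of a type cannot be told apart from less RNA per cell. Defining markers of intestine, germ line, muscle and neurons were detected in all groups.

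Against the DMSO libraries of the same batch, none of the 10 genes rose or fell with terbinafine or miglustat, while all other treatments changed between 4 and 8 of them. With dhod-1 RNAi 7 genes rose and 1 fell, where 61.4% of all tested genes were called, 31.3% as higher and 30.1% as lower. With teriflunomide 6 rose and 2 fell, beside 38.8% of all genes, 19% higher and 19.7% lower. With doxycycline 5 rose and 3 fell, beside 84.9% of all genes, 44.8% higher and 40.2% lower, so that the share called was near that of any gene. With BAY2402234 4 rose and 2 fell, beside 46.8%, 23.2% higher and 23.6% lower. With brequinar 3 rose and 1 fell, beside 15.7%, 5.03% higher and 10.6% lower. The terbinafine and miglustat comparisons called 0.898% and 0.581% of all genes. The 4 treated libraries lay entirely above or below the 4 controls for 8 of the 10 genes with dhod-1 RNAi, doxycycline and teriflunomide, where 51.3%, 75.8% and 33% of all genes did so. They did for 4 with BAY2402234 (39.6% of all genes), 4 with brequinar (25.8%), 2 with miglustat (6.68%) and 1 with terbinafine (9.14%). The treatments of a batch share their DMSO libraries, so these counts are not independent of each other.

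**Figure D1:**
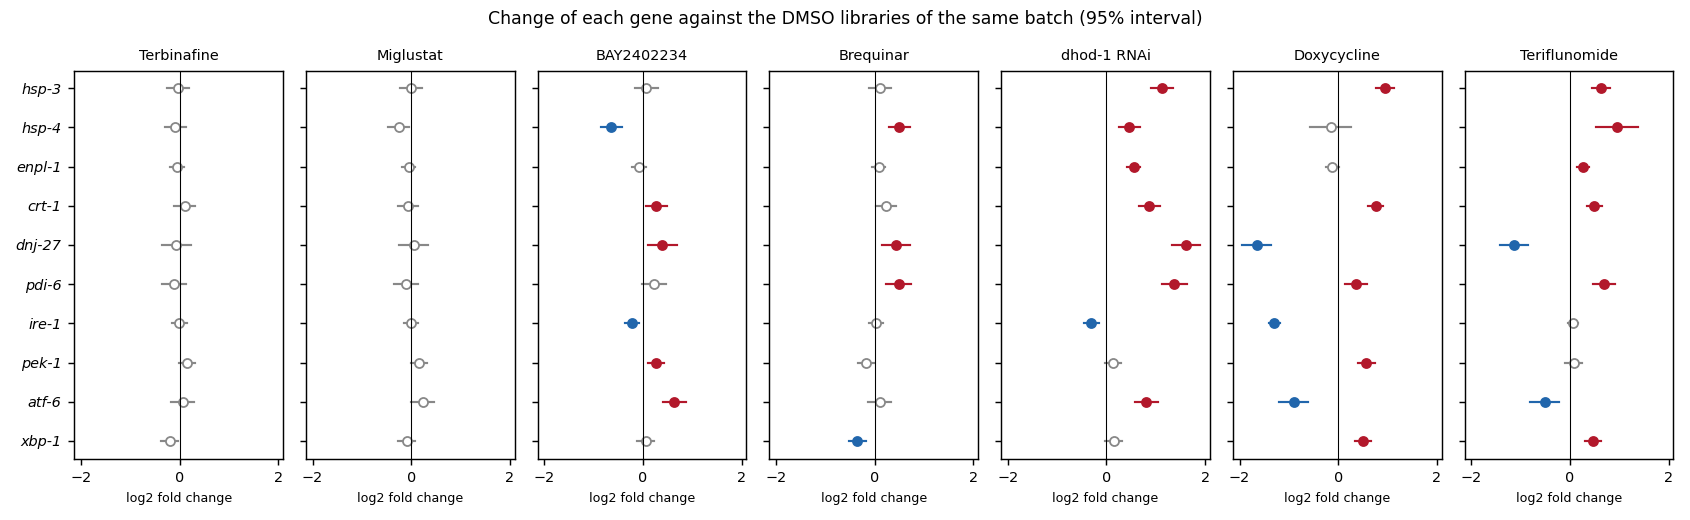
Log2 fold change of each gene (rows) against the DMSO libraries of the same batch, 1 panel per treatment, with the 95% interval as a line; filled points rose (red) or fell (blue) by edgeR's adjusted p and open points did not pass. In the first 2 panels all points are open, and dnj-27 is on the right with dhod-1 RNAi (1.61) and on the left with doxycycline (-1.65) and teriflunomide (-1.14).

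The genes lie on 6 chromosomes (build WBcel235, positions from the Ensembl annotation, counted from 1). hsp-3 (WBGene00002007) is on X, 6089028 to 6092124, and hsp-4 (WBGene00002008) is on II, 7350112 to 7352645. enpl-1 (WBGene00011480) is on IV, 11119298 to 11123155, and crt-1 (WBGene00000802) is on V, 6098992 to 6100542. dnj-27 (WBGene00001045) is on I, 11877803 to 11887278, and pdi-6 (WBGene00015168) is on X, 7066342 to 7068563. ire-1 (WBGene00002147) is on II, 8112243 to 8124910, pek-1 (WBGene00003970) on X, 11410176 to 11414887, atf-6 (WBGene00000222) on X, 12480948 to 12484904, and xbp-1 (WBGene00006959) on III, 4193809 to 4195358. Values are for whole genes, introns and UTRs not being separated. Exons of enpl-1 overlap spo-11 by 23 bases, those of crt-1 overlap smut-1 by 92 bases and those of ire-1 overlap unc-105 by 4 bases, each on the opposite strand. The strandedness of the counts was not given in the sources used here, so reads in these stretches cannot be assigned.

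Per kilobase of exon, the chaperones and xbp-1 were far above the sensors in control worms. In the batch 1 DMSO libraries the mean level was 695 ± 75.6 CPM per kb (SD, n = 4) for crt-1, 317 ± 24.1 for hsp-3, 316 ± 20.4 for xbp-1, 251 ± 9.71 for enpl-1 and 195 ± 5.60 for hsp-4. hsp-3 and xbp-1, neighbours in this order, differed by less than their SD. Below them came pdi-6 at 122 ± 8.76, ire-1 at 52.4 ± 3.07, pek-1 at 22.98 ± 1.16, dnj-27 at 10.8 ± 1.22 and atf-6 at 8.69 ± 0.886 CPM per kb.

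**Figure D2:**
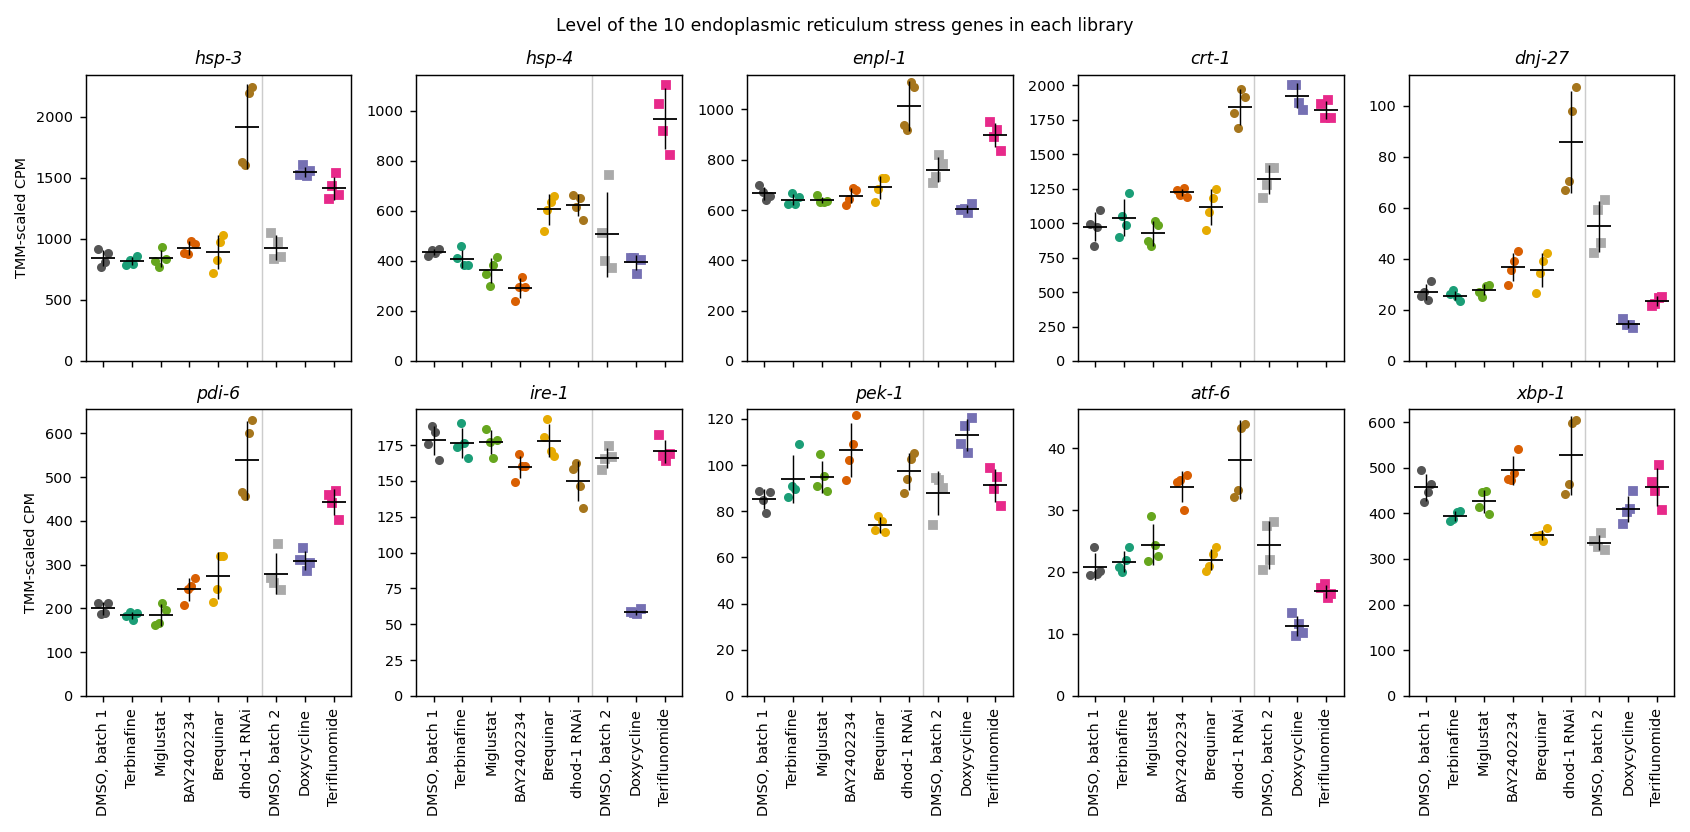
TMM-scaled CPM of each gene in each of the 36 libraries, by group, with the mean (dash) and SD (line) over 4 libraries; circles are batch 1 and squares batch 2, and each axis starts at 0. hsp-4 is lowest with BAY2402234 and highest with teriflunomide, ire-1 is low only with doxycycline (56.8 to 60.8 CPM), and the dnj-27 levels of the 2 DMSO groups do not overlap.

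Terbinafine and miglustat, the drugs on which the study centred, left all 10 genes below the threshold. xbp-1 was at 382, 388, 402 and 406 CPM with terbinafine and at 494, 424, 447 and 465 CPM with DMSO. The 2 groups did not overlap, but the log2 difference of -0.20 (SE 0.08) had an adjusted p by edgeR of 0.28. It was the only one of the 10 with an unadjusted p below 0.05, a level that 13.2% of all genes reached. With miglustat 2 of the 10 reached it, beside 9.5% of all genes. hsp-4 stood at 348, 301, 383 and 417 CPM with miglustat against 419.5, 443, 431 and 447 CPM with DMSO, all 4 libraries below every control (log2 difference -0.26, SE 0.10, adjusted p = 0.32, edgeR). atf-6 differed by 0.23 (SE 0.11, adjusted p = 0.52, edgeR). DESeq2 also called 0 of the 10 genes in both comparisons. The 95% intervals bound what could have been missed: for hsp-4 they ran from -0.29 to 0.12 with terbinafine and from -0.47 to -0.05 with miglustat, and for hsp-3 from -0.26 to 0.19 and from -0.23 to 0.22. Between the 2 drugs themselves, which were given at different doses, 0 of the 10 genes differed by edgeR or DESeq2 and 0 had an unadjusted p below 0.05, while 2.96% of all genes were called and 19.2% had such a p.

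Of the BiP genes only hsp-4 passed the test with BAY2402234 and brequinar, while both rose with teriflunomide and dhod-1 RNAi. hsp-4 fell with BAY2402234, to 240.0, 295, 336 and 295 CPM, and rose with brequinar, to 521, 605, 634 and 660.2 CPM, from 419.5 to 447 CPM in the batch 1 DMSO libraries. Neither group overlapped the controls, and they lay on opposite sides of them. The log2 fold changes were -0.64 (SE 0.10, adjusted p = 6.38e-05, edgeR) and 0.50 (SE 0.10, adjusted p = 0.00161, edgeR). Compared directly, at the same dose, hsp-4 was lower with BAY2402234 than with brequinar by a log2 difference of -1.14 (SE 0.10, 95% interval -1.35 to -0.93, adjusted p = 1.24e-08, edgeR). The 14 cytosolic heat shock genes summed to 4614 to 6088 CPM with BAY2402234, 8103 to 9187 CPM with DMSO and 9257 to 10567 CPM with brequinar. Of the 14, 13 fell with BAY2402234, where 46.8% of all genes were called. With brequinar 2 rose, a share near the 15.7% of all genes. With dhod-1 RNAi, where hsp-4 was higher, the 14 genes summed to 5046 to 7591 CPM. Of them 2 rose and 6 fell (median log2 fold change 0.03), where 61.4% of all genes were called. With miglustat, where hsp-4 did not pass, 9 of the 14 fell, beside 0.581% of all genes called. The part of this list in the hsp-4 results was not tested. With dhod-1 RNAi hsp-4 rose to 663, 615, 649.5 and 564 CPM (0.46, SE 0.10, adjusted p = 0.000451, edgeR). Brequinar minus dhod-1 RNAi was 0.04 on the log2 scale (95% interval -0.17 to 0.24), which did not pass the threshold.

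Teriflunomide gave the highest hsp-4 levels of the series, 1027, 919, 1101 and 823 CPM. Its controls scattered more than those of any other group, at 513, 397, 743 and 372 CPM, with replicate 3 the highest, and the groups did not overlap. The rise was 0.96 (SE 0.19, 95% interval 0.54 to 1.38, adjusted p = 0.00246, edgeR). With doxycycline hsp-4 stood at 413, 410.0, 348 and 404 CPM, within the range of those controls except for replicate 3 (log2 difference -0.15, SE 0.19, adjusted p = 0.46, edgeR). Doxycycline and teriflunomide, at different doses, differed in hsp-4 by -1.11 (SE 0.19, adjusted p = 0.000267, edgeR).

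hsp-3, the other BiP gene, did not pass the test with any compound of batch 1. It was at 885, 872, 986 and 956 CPM with BAY2402234 and at 723, 830.2, 973 and 1031 CPM with brequinar, against 913, 771, 814 and 881 CPM with DMSO, and the groups overlapped. The log2 differences were 0.07 (95% interval -0.16 to 0.29) and 0.10 (95% interval -0.13 to 0.33). With dhod-1 RNAi hsp-3 rose to 1628, 1602, 2196 and 2244 CPM, far above every control. The rise was 1.12 (SE 0.11, adjusted p = 8.13e-08, edgeR), and without replicates 3 and 4, the higher ones, it was 0.91. In batch 2 hsp-3 rose with doxycycline to 1519, 1601, 1516 and 1558 CPM, by 0.95 (SE 0.08, adjusted p = 5.03e-07, edgeR). With teriflunomide it rose to 1323, 1436, 1538 and 1356 CPM, by 0.63 (SE 0.08, adjusted p = 0.00018, edgeR). Both groups lay above all controls, which were at 1049, 835, 976 and 854 CPM. hsp-3 and hsp-4 encode similar proteins, and how reads shared by both were counted was not given in the sources used here.

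The ratio of hsp-4 to hsp-3 counts within a library does not depend on library scaling. In the batch 1 DMSO libraries it was 0.459, 0.574, 0.530 and 0.508. With BAY2402234 it was 0.271, 0.338, 0.341 and 0.308, and with dhod-1 RNAi 0.407, 0.384, 0.296 and 0.251, in both cases below every control. With brequinar it was 0.721, 0.729, 0.652 and 0.640, above every control. With BAY2402234 hsp-4 passed the test and hsp-3 did not, while with dhod-1 RNAi both had risen. With doxycycline the ratios were 0.272, 0.256, 0.230 and 0.259, all below the batch 2 controls of 0.489, 0.476, 0.761 and 0.436. Those of teriflunomide, 0.777, 0.640, 0.716 and 0.607, overlapped the same controls. In a two-sided exact permutation test of the log2 ratio the 4 comparisons without overlap each had p = 0.0286, the smallest p that 4 against 4 libraries allow. Adjusted over the 7 comparisons this was exactly 0.05, not below the threshold. The exact permutation p was 0.0571 for miglustat, 0.114 for teriflunomide and 0.6 for terbinafine, and their adjusted p was 0.08, 0.133 and 0.6. The mean differences of the log2 ratio were -1.06 for doxycycline, -0.72 for BAY2402234, -0.65 for dhod-1 RNAi and 0.41 for brequinar.

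**Figure D3:**
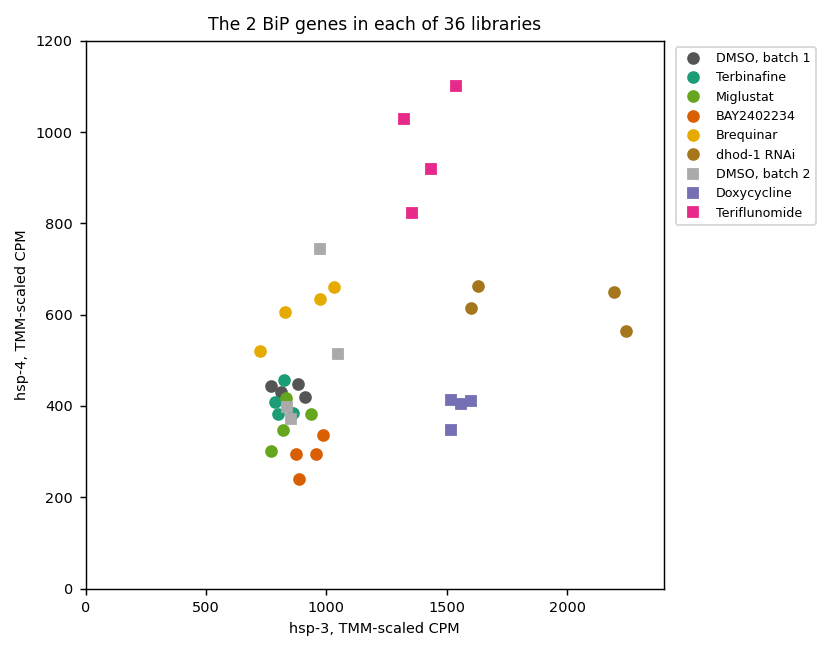
TMM-scaled CPM of hsp-3 (x axis) and hsp-4 (y axis) in each of the 36 libraries, coloured by group, with circles for batch 1 and squares for batch 2. Doxycycline and teriflunomide libraries have hsp-3 levels of 1516 to 1601 and 1323 to 1538 CPM but hsp-4 levels of 348 to 413 and 823 to 1101 CPM, and the dhod-1 RNAi libraries have the highest hsp-3 levels.

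crt-1 encodes calreticulin, a calcium-binding chaperone of glycoproteins. It was at 992, 836, 972 and 1093 CPM in the batch 1 DMSO libraries and rose with dhod-1 RNAi to 1797, 1688, 1974 and 1917 CPM, by 0.87 (SE 0.10, adjusted p = 4.46e-07, edgeR). In batch 2 it rose from 1184, 1279.9, 1404 and 1402 CPM to 2007, 2005, 1872 and 1824 CPM with doxycycline and to 1865, 1766, 1894 and 1767 CPM with teriflunomide. None of these treated libraries overlapped its controls. The changes were 0.76 (SE 0.07, adjusted p = 5.08e-07, edgeR) and 0.49 (SE 0.07, adjusted p = 0.000215, edgeR). With BAY2402234 crt-1 stood at 1194 to 1253 CPM and rose by 0.27 (SE 0.10, adjusted p = 0.0327, edgeR). That call was lost without BAY2402234 replicate 2 or 3 or DMSO replicate 2 or 3, where the adjusted p was between 0.0532 and 0.123. With brequinar its difference of 0.22 had an adjusted p by edgeR of 0.13.

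enpl-1 encodes endoplasmin, the ER relative of the HSP90 chaperones. With dhod-1 RNAi it rose to 939, 920.2, 1107 and 1091 CPM from 701, 671, 641 and 655 CPM, by 0.55 (SE 0.07, adjusted p = 6.44e-07, edgeR). With teriflunomide it rose to 949.8, 891, 917 and 834 CPM from 709, 732, 819.6 and 782 CPM, by 0.26 (SE 0.06, adjusted p = 0.00462, edgeR), and with DESeq2 this call was lost (0.18, adjusted p = 0.23). With doxycycline all 4 libraries, at 599, 604, 589 and 625 CPM, were below every control, but the log2 difference was -0.12 (SE 0.06, adjusted p = 0.0726, edgeR). Without batch 2 DMSO replicate 1 or 2, or with DESeq2, it passed as a fall (adjusted p = 0.0383, 0.0449 and 0.049). The CPM of the figure share 1 scaling over all 36 libraries, whereas the fold changes were scaled within a batch.

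pdi-6 encodes a protein disulfide isomerase of the ER. It was at 213, 187, 188 and 212 CPM in the batch 1 DMSO libraries and rose with dhod-1 RNAi to 465, 458, 601 and 631 CPM. With brequinar it rose to 215, 244, 319.8 and 319.7 CPM, where each library was above all controls. The changes were 1.37 (SE 0.12, adjusted p = 3.72e-08, edgeR) and 0.48 (SE 0.12, adjusted p = 0.00881, edgeR). With teriflunomide it rose from 269, 257, 347 and 242 CPM to 459, 440.1, 468 and 401 CPM, by 0.69 (SE 0.10, adjusted p = 0.000387, edgeR). With doxycycline, at 310.5, 338, 285 and 304 CPM, the libraries overlapped their controls through control replicate 3. The rise of 0.36 (SE 0.10, adjusted p = 0.00642, edgeR) was lost with DESeq2 (0.22, adjusted p = 0.22) and with RLE scaling in edgeR (adjusted p = 0.2).

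dnj-27 encodes an ER protein with a DnaJ domain and thioredoxin domains, related to mammalian ERdj5, a disulfide reductase. It had the largest changes of the 10 genes in both directions. In batch 1 it rose with dhod-1 RNAi to 67.1, 70.7, 97.9 and 108 CPM from 25.6, 27.1, 24.0 and 31.1 CPM, by 1.61 (SE 0.14, 95% interval 1.32 to 1.90, adjusted p = 3.20e-08, edgeR). Without replicates 3 and 4 the rise was 1.32. In batch 2 it fell from 42.3, 59.2, 46.2 and 63.1 CPM to 16.45, 14.1, 14.3 and 12.9 CPM with doxycycline and to 21.5, 22.5, 24.8 and 25.2 CPM with teriflunomide. None of the groups overlapped its controls. The falls were -1.65 (SE 0.13, adjusted p = 1.74e-07, edgeR) and -1.14 (SE 0.13, adjusted p = 6.41e-05, edgeR). The small rises with BAY2402234 (0.39, adjusted p = 0.0265, edgeR) and brequinar (0.43, adjusted p = 0.0417, edgeR) overlapped the controls. The first was lost without BAY2402234 replicate 3 or 4 or DMSO replicate 1 or 3 (adjusted p between 0.0509 and 0.0968). The second was lost without brequinar replicate 2, 3 or 4 or DMSO replicate 1, 2 or 3 (adjusted p between 0.0609 and 0.153).

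Between the DMSO, dhod-1 RNAi and teriflunomide groups, dnj-27 and markers of molting larvae and of embryos were high or low together. The 14 molting larva markers summed to 80.0 to 123 CPM in the batch 1 DMSO libraries, 405 to 804 CPM with dhod-1 RNAi, 354 to 749 CPM in the batch 2 DMSO libraries and 81.4 to 118.9 CPM with teriflunomide. Within the dhod-1 RNAi group, replicates 3 and 4 were the higher ones for both dnj-27 and these markers. Within the terbinafine and miglustat groups, the library with the highest larval sum (178 and 143 CPM) had the lowest dnj-27 level (23.3 and 25.2 CPM). The doxycycline libraries had larval marker sums of 131 to 576 CPM and the lowest dnj-27 levels. The 14 zygotic embryo markers summed to 39.1 to 50.1 CPM with batch 1 DMSO, 103 to 180 CPM with dhod-1 RNAi, 65.1 to 118 CPM with batch 2 DMSO, 52.4 to 59.2 CPM with doxycycline and 43.7 to 49.1 CPM with teriflunomide. The doxycycline embryo sums were thus above those of teriflunomide, although dnj-27 was lower with doxycycline. The part of larvae or embryos in the dnj-27 result was not tested. All 14 genes of the first list were detected in every group, and of the second list 3 were at 0 in the doxycycline group and 1 each in the terbinafine, BAY2402234 and teriflunomide groups.

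**Figure D4:**
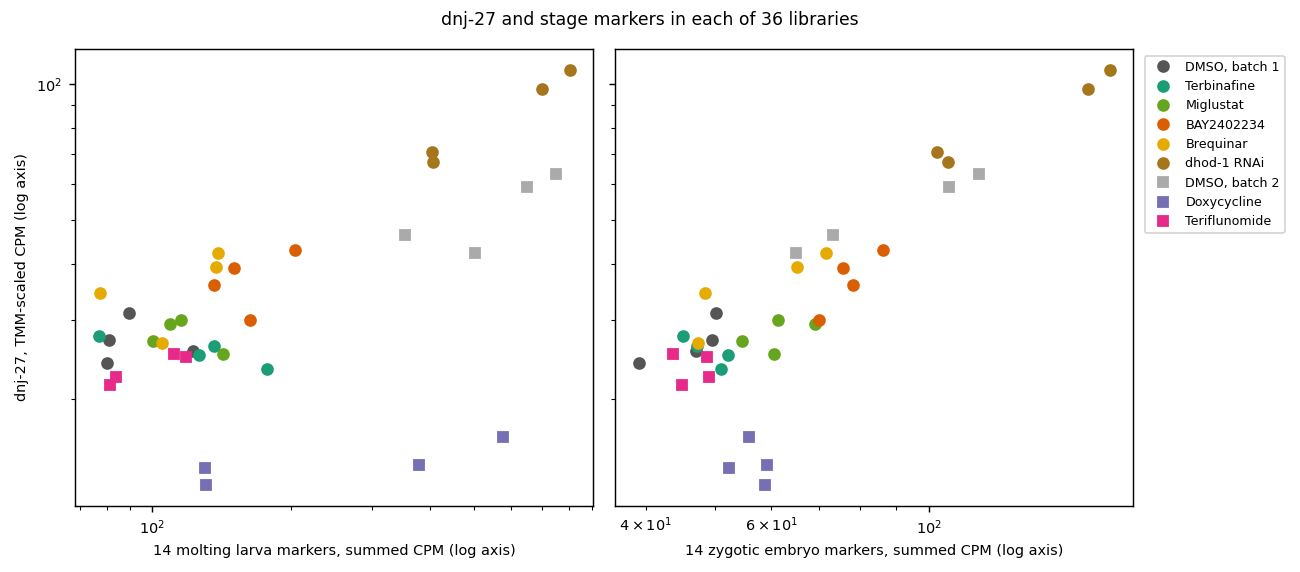
Level of dnj-27 (y axis, TMM-scaled CPM, log scale) in each library against the summed CPM (x axis, log scale) of 14 molting larva markers (left) or 14 zygotic embryo markers (right). The dhod-1 RNAi and batch 2 DMSO libraries are high on both axes, and the doxycycline libraries are below the rest in dnj-27 at 12.9 to 16.45 CPM.

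Among the sensors, ire-1 encodes the kinase and endoribonuclease that splices xbp-1 mRNA. It was steady in most groups, with all libraries between 131 and 193 CPM outside doxycycline. With doxycycline it fell to 58.6, 57.5, 56.8 and 60.8 CPM from 158, 165, 174 and 166 CPM, and the groups were far apart. The change was -1.29 (SE 0.05, 95% interval -1.40 to -1.19, adjusted p = 2.06e-10, edgeR). With teriflunomide it differed by 0.06 (95% interval -0.04 to 0.17, adjusted p = 0.29, edgeR). Germ line markers were low in the same libraries: the 16 genes summed to 758 to 1112 CPM with doxycycline, 8586 to 11725 CPM in the batch 2 DMSO libraries and 8694 to 9959 CPM with teriflunomide, and 11 muscle markers were high, at 16394 to 20052 CPM against 4395 to 7255 CPM. Their part in the ire-1 result was not tested. Smaller falls were seen with dhod-1 RNAi, to 158, 162, 147 and 131 CPM from 176, 188, 184 and 165 CPM (-0.30, SE 0.07, adjusted p = 0.00102, edgeR), and with BAY2402234 (-0.22, SE 0.07, adjusted p = 0.0158, edgeR). Germ line sums were lower in these groups too, at 5096 to 10820.3 CPM and 8401 to 9704 CPM against 11925 to 12886 CPM. The BAY2402234 call was lost without its replicate 1 (adjusted p = 0.103), without DMSO replicate 2 or 3 (0.0668 and 0.0598), and with library totals alone, where the change was -0.05.

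pek-1 encodes the PERK kinase. It rose with doxycycline to 109, 117, 105 and 121 CPM from 73.9, 94.3, 93.4 and 90.1 CPM, by 0.57 (SE 0.08, adjusted p = 2.66e-05, edgeR), with no overlap. With BAY2402234 it rose to 93.5, 102, 109 and 122 CPM from 88.6, 84.7, 79.4 and 88.3 CPM, by 0.26 (SE 0.08, adjusted p = 0.011, edgeR). This call was lost without BAY2402234 replicate 4, the highest library (adjusted p = 0.0608). Brequinar libraries, at 71.7, 78.0, 75.8 and 71.0 CPM, all lay below the controls without passing the threshold (-0.18, SE 0.08, adjusted p = 0.13, edgeR). At equal dose pek-1 was higher with BAY2402234 than with brequinar by 0.44 (SE 0.08, adjusted p = 7.77e-05, edgeR).

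atf-6 encodes the membrane-bound ATF6 transcription factor and was the least abundant of the 10 genes per kilobase. It rose with BAY2402234 to 34.5, 34.9, 30.0 and 35.6 CPM and with dhod-1 RNAi to 32.0, 33.2, 43.3 and 43.9 CPM, from 19.5, 24.0, 19.7 and 20.2 CPM. All treated libraries were above all controls. The changes were 0.63 (SE 0.11, adjusted p = 0.000181, edgeR) and 0.81 (SE 0.11, adjusted p = 2.98e-06, edgeR), and BAY2402234 minus dhod-1 RNAi, at -0.18 (95% interval -0.40 to 0.05), did not pass the threshold. Brequinar libraries, at 20.2, 20.9, 22.8 and 24.0 CPM, overlapped the controls (0.10, adjusted p = 0.57, edgeR). In batch 2 atf-6 fell from 20.3, 27.4, 21.9 and 28.0 CPM to 13.4, 9.73, 11.7 and 10.2 CPM with doxycycline and to 17.3, 18.004, 15.7 and 16.36 CPM with teriflunomide. The falls were -0.90 (SE 0.14, adjusted p = 6.23e-05, edgeR) and -0.51 (SE 0.14, adjusted p = 0.0117, edgeR). The embryo marker sums were 70.03 to 86.3 CPM with BAY2402234 and the larval sums 136 to 204 CPM, both above their batch 1 DMSO ranges. Between the DMSO groups both sums were higher in batch 2, but atf-6 did not pass there (0.23, adjusted p = 0.14, edgeR). The part of these markers in the atf-6 results was not tested.

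xbp-1 encodes the bZIP factor downstream of IRE-1. It fell with brequinar to 349, 353, 339.8 and 368 CPM from 494, 424, 447 and 465 CPM, by -0.35 (SE 0.08, adjusted p = 0.00495, edgeR), in the same libraries in which hsp-4 rose. In batch 2 it rose from 339, 327, 357 and 319 CPM to 377, 404, 409 and 448 CPM with doxycycline and to 469, 448, 505 and 408 CPM with teriflunomide. None of these treated libraries overlapped its controls. The rises were 0.50 (SE 0.07, adjusted p = 5.41e-05, edgeR) and 0.47 (SE 0.07, adjusted p = 0.000514, edgeR). With dhod-1 RNAi the libraries were split, replicates 1 and 2 at 442 and 463 CPM within the control range and replicates 3 and 4 at 597 and 605 CPM above it. Over all 4 the difference was 0.15 (SE 0.08, adjusted p = 0.12, edgeR). Without replicate 1 or replicate 2 it passed as a rise (0.21 and 0.19, adjusted p = 0.0252 and 0.0446), and without replicates 3 and 4 it was -0.05.

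Direct contrasts set the dihydroorotate dehydrogenase treatments of batch 1 side by side. BAY2402234 and brequinar, both at 500 µM, differed in 6 of the 10 genes, 3 higher and 3 lower with BAY2402234, where 63.4% of all genes were called, 33.2% higher and 30.2% lower. Besides hsp-4 and pek-1 these were atf-6 (0.53, SE 0.11), xbp-1 (0.40, SE 0.08), ire-1 (-0.24, SE 0.07) and enpl-1 (-0.16, SE 0.07), all by edgeR. The ire-1 call was lost without BAY2402234 replicate 1 (-0.15, adjusted p = 0.0871), with library totals alone (-0.09, adjusted p = 0.23), with the stricter filter and with no low-count filter. The enpl-1 call was lost under most alternatives, leaving out any BAY2402234 replicate among them, and the split was 3 higher and 4 lower with DESeq2 and 3 higher and 1 lower with library totals alone. hsp-3, crt-1 and dnj-27 did not pass, with 95% intervals of -0.26 to 0.19, -0.16 to 0.25 and -0.32 to 0.25. Nor did pdi-6 (-0.26, 95% interval -0.51 to -0.02, adjusted p = 0.0588, edgeR). It passed as lower with DESeq2 (adjusted p = 0.0383) and, in edgeR, with RLE scaling (0.0423) and a replicate block (0.0264). BAY2402234 had 6 of the 10 lower than dhod-1 RNAi and none higher, beside 44.1% of all genes called, 19.6% higher and 24.5% lower: hsp-3, hsp-4, enpl-1, crt-1, dnj-27 and pdi-6, by -0.60 to -1.22. Brequinar had 8 lower and 1 higher than dhod-1 RNAi, beside 64.3%, 27.9% higher and 36.4% lower. ire-1 was the higher one (0.33, SE 0.07), and hsp-4 was the one that did not pass. In batch 2 doxycycline had 3 of the 10 higher and 6 lower than teriflunomide, beside 74.2%, 36.3% higher and 37.9% lower. The largest difference was ire-1 (-1.36, SE 0.05, adjusted p = 2.27e-10, edgeR), and hsp-3 (0.32), crt-1 (0.27) and pek-1 (0.49) were the higher ones. DESeq2 gave 2 higher and 6 lower there, and library totals alone 4 and 4. The median over all genes was 0.16 between BAY2402234 and brequinar, -0.14 between brequinar and dhod-1 RNAi and 0.22 between doxycycline and teriflunomide. Relative to the last, hsp-3, crt-1 and pek-1 differed by 0.10, 0.05 and 0.27. Teriflunomide was not tested against the inhibitors of batch 1, since batch and dose differ.

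The DMSO groups of the batches were not alike, which limits the levels set side by side across batches. In a fit of all 36 libraries 4 of the 10 genes were higher and 1 was lower in batch 2 than in batch 1, beside 33.8% of all genes called, 22.7% higher and 11.1% lower. dnj-27 was higher by 0.97 (SE 0.15, adjusted p = 5.62e-06, edgeR), pdi-6 by 0.48, crt-1 by 0.44 and enpl-1 by 0.19, and xbp-1 was lower by -0.45 (SE 0.08, adjusted p = 9.94e-05, edgeR). The enpl-1 call was lost with DESeq2 and without batch 1 DMSO replicate 3 or 4 or batch 2 DMSO replicate 3. The falls of dnj-27 in batch 2 thus started from a higher control level, and its mean with teriflunomide, 23.5 ± 1.78 CPM (SD, n = 4), was near that of the batch 1 DMSO libraries, 26.96 ± 3.06 CPM. The rises of xbp-1 in batch 2 started from a lower control level. Its means were 410 ± 29.3 CPM with doxycycline and 458 ± 40.7 CPM with teriflunomide, beside 457 ± 29.5 CPM in the batch 1 DMSO libraries.

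In the doxycycline and BAY2402234 comparisons the whole distribution of fold changes was off 0: the median over all genes was 0.23 with doxycycline under TMM, 0.12 under RLE scaling and 0.31 with library totals alone, and 0.10, 0.12 and 0.27 with BAY2402234. Relative to the TMM median, the doxycycline changes were 0.72 for hsp-3, 0.53 for crt-1, 0.34 for pek-1, 0.27 for xbp-1 and 0.13 for pdi-6. On the lower side they were -1.89 for dnj-27, -1.53 for ire-1 and -1.13 for atf-6. Also below that median were hsp-4 (-0.39) and enpl-1 (-0.35), neither of which was called. With DESeq2 or RLE scaling the doxycycline split was 4 higher and 4 lower in place of 5 and 3. For BAY2402234 the changes relative to the median were -0.75 for hsp-4, -0.33 for ire-1, 0.53 for atf-6, 0.29 for dnj-27, 0.16 for crt-1 and 0.15 for pek-1. The genes not called were at -0.19 (enpl-1), -0.05 (xbp-1), -0.04 (hsp-3) and 0.11 (pdi-6). With library totals alone the BAY2402234 split was 5 higher and 1 lower in place of 4 and 2.

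Other genes of ER protein handling were read as lists, to be set beside the shares of all genes called: 61.4% with dhod-1 RNAi, 38.8% with teriflunomide, 84.9% with doxycycline, 46.8% with BAY2402234 and 15.7% with brequinar. Named from each list are at most 3 called genes per treatment, those with the smallest p. Of 16 folding genes, among them calnexin, further disulfide isomerases and co-chaperones, 10 rose and none fell with dhod-1 RNAi, with a median of 0.46 against -0.02 for all genes. T14G8.3 rose by 1.15 (SE 0.10), uggt-1, the glucosyltransferase that tags unfolded glycoproteins, by 1.32 (SE 0.12) and pdi-2, a disulfide isomerase, by 1.10 (SE 0.11). With teriflunomide 9 rose and 2 fell by edgeR (median 0.26 against -0.02), and DESeq2 called 6 in all. dnj-7, a DnaJ co-chaperone, rose by 0.95 (SE 0.08), T14G8.3 by 0.99 (SE 0.11) and ero-1, the oxidase that supplies disulfide bonds, by 0.31 (SE 0.05). With doxycycline 7 rose and 6 fell, no larger a share than the 84.9% of all genes: dnj-20 by 1.07 (SE 0.08), dnj-7 by 0.88 (SE 0.08) and cnx-1, calnexin, by -0.57 (SE 0.05). With BAY2402234 1 rose and 7 fell, pdi-1 by -0.52 (SE 0.07), cnx-1 by -0.31 (SE 0.06) and stc-1 by -0.27 (SE 0.06). Beside these, 46.8% of all genes were called, 23.2% as higher and 23.6% as lower, so that the share called was near that of any gene. None of the folding genes passed with brequinar, terbinafine or miglustat, where 3, 0 and 1 had an unadjusted p below 0.05 and DESeq2 called 0.

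ER-associated degradation, moves misfolded proteins back to the cytosol for the proteasome. Of its 16 listed genes 12 fell and 1 rose with dhod-1 RNAi (median -0.33), and 14 fell and 1 rose with doxycycline (median -1.01 against 0.23 for all genes). With BAY2402234 14 fell and none rose (median -0.33 against 0.10). The ubiquitin-conjugating enzyme gene ubc-7 fell by -0.50 (SE 0.09) with dhod-1 RNAi and by -1.43 (SE 0.05) with doxycycline. ufd-1, a partner of the segregase that pulls substrates out, fell by -0.44 (SE 0.08), -1.36 (SE 0.06) and, with BAY2402234, -0.48 (SE 0.08). hrdl-1 fell by -0.56 (SE 0.09) with dhod-1 RNAi, ubc-6 by -1.27 (SE 0.06) with doxycycline, and sel-11, a ubiquitin ligase gene, and npl-4.2 by -0.50 (SE 0.08) and -0.45 (SE 0.08) with BAY2402234. With teriflunomide edgeR called 2 higher and 1 lower, C47E12.3 (0.27), sel-1 (0.23) and ubc-7 (-0.15), and DESeq2 none. The germ line sums given for ire-1 were low in the dhod-1 RNAi, doxycycline and BAY2402234 groups, and their part in these lists was not tested. With brequinar, terbinafine and miglustat edgeR and DESeq2 called 0, and 1, 2 and 0 genes had an unadjusted p below 0.05.

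Translocation and glycosylation genes bring proteins into the ER and add their sugars. Of 14 tested, 13 fell with BAY2402234 (median -0.33), led by the translocon-associated genes trap-1 (-0.89, SE 0.10), trap-3 (-0.76, SE 0.09) and trap-4 (-0.80, SE 0.11). With doxycycline 2 rose and 9 fell, a share below the 84.9% of all genes, among them the signal recognition particle gene srpa-72 (-0.57, SE 0.06) and the signal peptidase gene spcs-3 (-0.49, SE 0.05). With dhod-1 RNAi 4 rose and 2 fell, a share below the 61.4% of all genes. The oligosaccharyltransferase genes stt-3 (0.27, SE 0.07) and ostb-1 (0.25, SE 0.07) were on the higher side and trap-1 (-0.29, SE 0.10) on the lower. trap-1 was the only one called with brequinar (-0.34, SE 0.10). With teriflunomide, terbinafine and miglustat none passed by edgeR or DESeq2, and 2, 2 and 0 had an unadjusted p below 0.05.

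**Figure D5:**
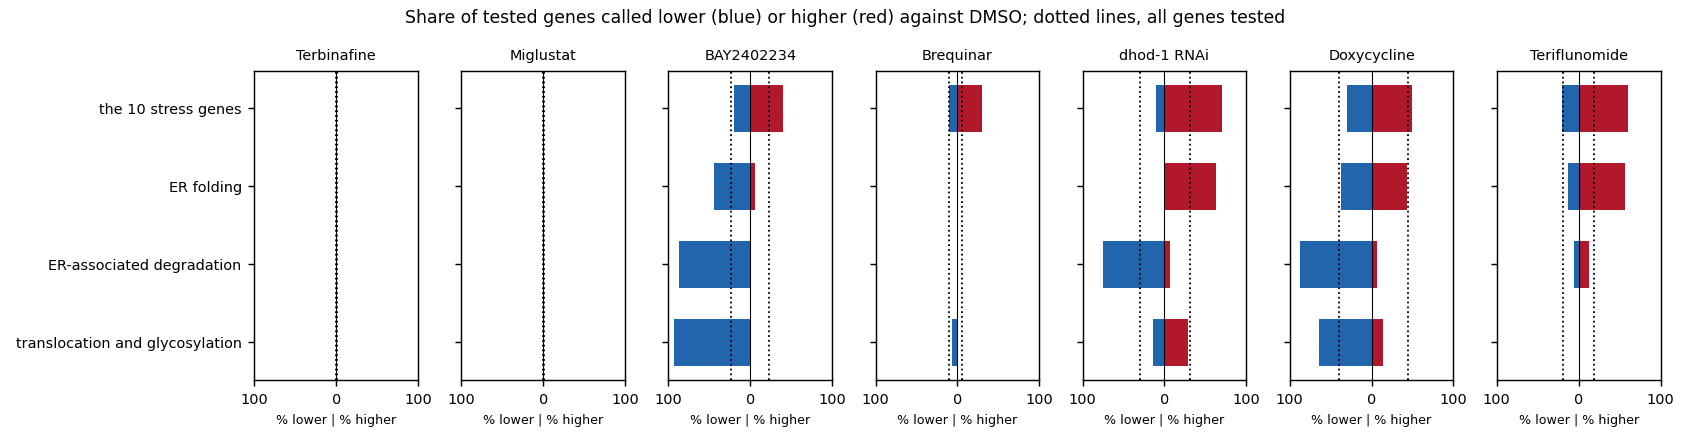
Share of the tested genes of each list called lower (blue, to the left) or higher (red, to the right) against DMSO of the same batch, 1 panel per treatment; dotted lines give the shares over all genes tested. The degradation list is mostly lower with BAY2402234 (14 of 16), dhod-1 RNAi (12 of 16) and doxycycline (14 of 16), while the 10 stress genes are mostly higher with dhod-1 RNAi (7 of 10) and teriflunomide (6 of 10).

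Partners of the sensors were 6 genes. Since at most 3 called genes per treatment are named, a gene may also have been called with treatments not given for it. atf-4, the factor translated when eIF2alpha is phosphorylated, rose with teriflunomide from 43.3 ± 11.7 to 85.1 ± 4.75 CPM (1.00, SE 0.15, adjusted p = 0.000421, edgeR) and with dhod-1 RNAi from 53.8 ± 6.81 to 76.7 ± 16.8 CPM (0.45, SE 0.14, adjusted p = 0.00959, edgeR; SD, n = 4). ckb-2, a choline kinase gene, rose with teriflunomide (1.88, SE 0.20), dhod-1 RNAi (1.26, SE 0.17) and brequinar (0.50, SE 0.17). rtcb-1, the ligase that joins the cleaved ends of xbp-1 mRNA, fell with doxycycline by -1.49 (SE 0.08) and with BAY2402234 by -0.36 (SE 0.07). Of the 6 genes, 2 rose and 4 fell with doxycycline, 3 rose and 1 fell with teriflunomide, 2 rose and 2 fell with dhod-1 RNAi, 3 fell with BAY2402234 and 1 rose with brequinar. The 4 called with dhod-1 RNAi, the 3 with BAY2402234 and the 1 with brequinar were near the 61.4%, 46.8% and 15.7% of all genes. With doxycycline and teriflunomide 84.9% and 38.8% of all genes were called. crh-2 (-0.75 and -0.28) fell with doxycycline and BAY2402234, eif-2alpha with BAY2402234 (-0.43) and dhod-1 RNAi (-0.45), and gcn-2, another eIF2alpha kinase gene, with doxycycline (-1.04) and teriflunomide (-0.26). With terbinafine and miglustat edgeR and DESeq2 called none, and none had an unadjusted p below 0.05.

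Across the 36 libraries, taken as differences from the DMSO mean of the batch, the genes most like hsp-3 in pattern were T14G8.3 (Pearson's r = 0.96), mrp-2, dnj-7, fah-1 and pdi-2 (0.94), of 7830 genes ranked. Those most like hsp-4 were cyp-25A2 (r = 0.93), rme-1, fitm-2, F52B11.2 and acaa-2 (0.89). Without the 4 doxycycline libraries these r were 0.95 to 0.97 for hsp-3 and 0.92 to 0.95 for hsp-4. hsp-3 and hsp-4 themselves had an r of 0.42, and 0.58 without doxycycline. hsp-3 and crt-1 had an r of 0.92 (0.915 without doxycycline), and dnj-27 and atf-6 of 0.93 (0.87 without doxycycline). For hsp-3 with enpl-1 and with pdi-6 the r was 0.55 and 0.84, and 0.95 in each case without doxycycline. These are descriptions over libraries that fall into 9 groups and share their controls, so they carry no test.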

How the data were processed

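Raw gene counts of the 36 libraries were taken from the deposited table without change. The submitters' processing notes name FastQC, STAR 2.7.3a, DESeq2 1.40.2 and WBcel235. The sources used here do not state the counting tool, annotation release or strandedness. The labels' protocols name TriPure, spin columns and a BGISEQ-500.

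Genes passing filterByExpr (minimum count 10) were fitted per batch, all groups together, with TMM and robust quasi-likelihood F tests in edgeR 4.0.16 (R 4.3.3), giving 15142 and 15695 genes, or 16512 over all 36 libraries. P-values were adjusted by Benjamini-Hochberg. CPM used TMM factors over all libraries. The second tool was DESeq2 1.42.0. The ratio of hsp-4 to hsp-3 had an exact permutation test. The fit was tested on simulated counts, with changes put into genes drawn at random from all tested. In the terbinafine and doxycycline designs it recovered 38% and 14% of log2 changes of 0.5. It recovered 70% and 42% of changes of 1. Of the genes called, 2.74% and 1.77% were false.

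The 10 genes and all lists were chosen with earlier results of these data known. All 10 are named, up to 3 called genes per other ER list by smallest p (1 such gene is not reported here), and the 5 genes most like hsp-3 and hsp-4 (mean of at least 10 CPM, pseudocount 0.5 CPM). Heat shock, mitochondrial and tissue lists are given by counts and sums. The list names sec-61, emo-1 and opt-2 were not matched. Names were found for 25676 identifiers.

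Same-numbered replicates deviated together in every pair only for brequinar and dhod-1 RNAi (lowest r 0.16), with no label tying numbers to a shared day or batch, so the blocked fit was an alternative. No 2 replicates of a group were near-identical (lowest chi-square per degree of freedom 3.73).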

Additional observations from a re-analysis of the deposited data

Results flagged for a closer look

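In 2 of the 90 sets of 4 libraries (10 genes in 9 groups) 1 library lay far from the other 3 relative to the range of the set. Such a gap arises by chance in about 1 of 20 sets. hsp-4 in doxycycline replicate 3 stood at 348 CPM, below 404 to 413 CPM in the other doxycycline libraries. Without it hsp-4 still did not pass against DMSO. atf-6 in batch 1 DMSO replicate 2 stood at 24.0 CPM, above 19.5 to 20.2 CPM in the other controls, and the calls of atf-6 were kept without it.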

How the results depend on the processing

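Other settings were DESeq2, RLE scaling, library totals alone, no low-count filter, a stricter minimum count of 50, only the groups compared in the fit, a replicate block and leaving out 1 library at a time. None turned the direction of a called gene. With 1 library left out, the number of the 10 genes called ranged from 3 to 6 for BAY2402234 (3 without DMSO replicate 3, 6 with all libraries), 3 to 4 for brequinar, 8 to 9 for dhod-1 RNAi, 8 to 9 for doxycycline and 8 to 8 for teriflunomide, and stayed at 0 for terbinafine and miglustat. The log2 hsp-4 to hsp-3 ratio difference with terbinafine, -0.05 with all libraries, ranged from -0.11 without DMSO replicate 1 to 0.0043 without terbinafine replicate 4, and was 0.0011 without DMSO replicate 2. With the replicate block the counts were 6, 4, 8, 8 and 8 for BAY2402234, brequinar, dhod-1 RNAi, doxycycline and teriflunomide, and 9 for brequinar against dhod-1 RNAi, as without it. The pairing changed 3 single calls, enpl-1 (adjusted p = 0.0505) and pdi-6 (0.0264) between BAY2402234 and brequinar and atf-6 (0.0524) between doxycycline and teriflunomide. Paired by number, the ratio cannot reach an exact p below 0.125. Without dhod-1 RNAi replicates 3 and 4, a setting chosen after seeing the data, 7 genes rose and 1 fell, as with them. Depth did not limit the tests, the lowest count of a gene in a library being 215, and the 4 libraries per group limit precision.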

Other observations

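Of 5 genes of ER calcium handling, 4 rose and none fell with teriflunomide, where 38.8% of all genes were called, and 3 rose and 2 fell with doxycycline, where 84.9% were. itr-1, the inositol trisphosphate receptor, rose from 62.1 ± 10.4 CPM to 177 ± 17.9 CPM with teriflunomide and 191 ± 10.3 CPM with doxycycline (SD, n = 4). sca-1, the calcium pump of the ER, rose from 843 ± 39.2 CPM to 1135 ± 25.5 and 1321 ± 66.5 CPM, and unc-68, the ryanodine receptor, from 99.9 ± 24.4 CPM to 162 ± 18.97 and 279 ± 7.91 CPM. Muscle marker sums were also higher in these groups, at 9531 to 11191 CPM with teriflunomide and 16394 to 20052 CPM with doxycycline against 4395 to 7255 CPM, and their part was not tested. In batch 1 itr-1 rose with BAY2402234 (0.97, SE 0.18), unc-68 and sca-1 fell with brequinar (-0.61 and -0.28), and unc-68 and stim-1, a calcium sensor of the ER, fell with dhod-1 RNAi (-0.54 and -0.27). Muscle marker sums were lower there too, at 3801 to 4410 CPM with brequinar and 3326 to 4219 CPM with dhod-1 RNAi against 5413 to 7040 CPM, and their part was not tested.

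The abu genes, named as activated in worms whose unfolded protein response is blocked, were low in batch 1, where 14 of them summed to 1.76 to 37.5 CPM per library. In batch 2 they summed to 38.2 to 194 CPM with DMSO, 194 to 482 CPM with doxycycline and 17.1 to 60.3 CPM with teriflunomide. With doxycycline 8 of 11 tested rose and none fell, where 44.8% of all genes rose, among them abu-8, from 10.7 ± 9.54 to 53.3 ± 17.9 CPM (SD, n = 4). With dhod-1 RNAi 1 of 10 tested rose and 8 fell, where 61.4% of all genes were called, 31.3% as higher and 30.1% as lower. Those calls rest on very low levels, and only 2 of the 10 genes had groups that did not overlap. The sums overlapped too, at 5.59 to 13.6 CPM with dhod-1 RNAi and 3.48 to 27.8 CPM with batch 1 DMSO. With teriflunomide 3 of 11 fell (38.8% of all genes called), and with BAY2402234 2 of 10 rose (46.8%). Over doxycycline replicates 1 to 4 the abu sums were 482, 194, 369 and 232 CPM. The molting larva sums were 576, 131, 379 and 131 CPM, and their part in the abu results was not tested. Several abu genes are close copies of each other, and their single values are uncertain.

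The shares of all genes called were 0.898% with terbinafine, 0.581% with miglustat, 46.8% with BAY2402234, 15.7% with brequinar, 61.4% with dhod-1 RNAi, 84.9% with doxycycline and 38.8% with teriflunomide. Of 14 cytosolic heat shock genes, 9 fell with miglustat, 13 with BAY2402234 and 6 with dhod-1 RNAi, where 2 rose. None was called with terbinafine by edgeR or DESeq2, with 6 at an unadjusted p below 0.05, while 2 rose with brequinar, 8 with teriflunomide, and 5 rose and 5 fell with doxycycline. Of 16 genes of the mitochondrial unfolded protein response, 12 rose with teriflunomide by edgeR and 3 were called by DESeq2. With doxycycline 7 rose and 5 fell, a share below that of all genes, with brequinar 1 rose and 2 fell, near that of all genes, and with BAY2402234 and dhod-1 RNAi 1 rose and 11 fell in each. With terbinafine and miglustat edgeR and DESeq2 called 0 of them, and 2 had an unadjusted p below 0.05 in each. The 14 sperm markers summed to 5.06 to 22.6 CPM with dhod-1 RNAi and 63.4 to 174 CPM with batch 1 DMSO. The 12 neuron markers summed to 365 to 435 and 343 to 402 CPM in these groups, with 3 genes higher, 4 lower and a median of -0.35. The 13 intestine markers summed to 80593 to 103863 CPM with dhod-1 RNAi, 60499 to 62249 CPM with batch 1 DMSO and 41167 to 45889.9 CPM with brequinar. With teriflunomide they summed to 29756 to 35681 CPM against 39856 to 47795 CPM with batch 2 DMSO, while 8 of the 13 genes were higher and 2 lower (median 0.47).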
